A study of Caenorhabditis elegans with 2 samples.

Results

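The ribosomal protein and translation initiation genes of Caenorhabditis elegans were examined for binding of DMD-4, a transcription factor of the DM-domain family. They were all protein-coding genes of the Ensembl annotation whose symbol is rpl-, rps- or eif- followed by a digit. The rule gave 103 of 19985 protein-coding genes: 47 of the large ribosomal subunit (rpl-), 31 of the small subunit (rps-) and 25 initiation factor genes (eif-). These roles were taken from the symbol alone, so a gene counted under a role need not act in it. DMD-4 had been mapped by chromatin immunoprecipitation followed by sequencing (ChIP-seq) in 1 group of 2 biological replicates, with an antibody against GFP on sonicated chromatin. The animals were hermaphrodite late embryos of strain OP418, taken whole, 5 h after the population was synchronized by bleaching. Their genotype was unc-119(tm4063) III; wgIs418, a transgene for DMD-4 with a C-terminal GFP-FLAG tag in an unc-119 mutant background. The tagged protein came from the inserted transgene, and all cell types were mixed, so a region could not be assigned to a tissue. With no other group, no comparison between conditions was possible, and control regions were not used here.

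Ribosomal proteins join ribosomal RNA to form the large subunit, which makes peptide bonds, and the small subunit, which reads the messenger RNA. The eukaryotic initiation factors bring the initiator tRNA, the messenger RNA and the subunits together at the start codon, and eIF3 is the large complex that organizes this on the small subunit. These genes are active in nearly all cells. In animals, small nucleolar RNAs (snoRNAs), which guide the modification of ribosomal RNA, often lie inside introns of ribosomal protein genes. DM-domain factors are best known for roles in sexual development and in neurons.

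The authors deposited region lists for genome build ce11: 30000 candidate regions of the pooled replicates, 30000 of each replicate, and 652 reproducible peaks kept by the irreproducible discovery rate procedure. Each region carried a signal in arbitrary units that the authors set relative to a control. Signals can be ranked within a list but not compared between lists, so replicates were compared by rank, with rank 1 the strongest. Candidates covered 12.6% of the genome and reproducible peaks 0.268%. Each gene was represented by its strongest pooled region with the summit between 1000 bp upstream and 200 bp downstream of a transcript start. The files hold no read counts, which leaves the sequencing depth of each library unknown. Intervals in brackets are exact 95% intervals by the Clopper-Pearson method, and they cover counting error over genes or regions only. All counts below are descriptions without a test.

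A set of 10 genes is described most closely, because the strongest region of each was a reproducible peak. These 10 made up 9.71% of the 103 genes (interval 4.75 to 17.1%), against 2.07% of all protein-coding genes, 414 of 19985. They comprised 4 large subunit genes (rpl-3, rpl-15, rpl-24.2 and rpl-35), 3 small subunit genes (rps-12, rps-19 and rps-24) and 3 genes of eIF3 subunits (eif-3.C, eif-3.E and eif-3.I). The strongest of them was at rps-24, with a pooled signal of 293.5 and pooled rank 43. The other ribosomal protein and initiation factor genes reached a signal of at most 83.1, below the lowest signal of the reproducible list, 106.4. The list holds 652 regions and ends at pooled rank 652, so falling below its lowest signal follows from being outside it.

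The sequences around 4 summits on chromosomes III and IV are shown, because they hold the repeated unit at rps-24 and the motif matches described next. Each runs 5′ to 3′ along the strand of its gene, from 100 bp before to 100 bp after the summit, and comes from the RefSeq sequence of WBcel235 (ce11). The windows lie at IV:385183-385383 for rps-24, III:7854583-7854783 for rpl-35, III:5679026-5679226 for rps-12 and IV:654824-655024, minus strand, for rpl-15. Capitals mark matches, on either strand, to 6 searched motifs. The motif CGCACA, the motif GAGAGA and the motif GCGCGC had led an earlier analysis of these data. The others were the DM-domain core ACATTGT, the B box GTTCGA of tRNA gene promoters and TTTCAG, the worm splice acceptor.
rps-24: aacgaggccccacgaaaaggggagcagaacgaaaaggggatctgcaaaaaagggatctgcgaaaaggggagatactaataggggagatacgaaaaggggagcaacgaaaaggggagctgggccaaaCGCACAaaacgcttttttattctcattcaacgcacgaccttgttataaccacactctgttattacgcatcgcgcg
rpl-35: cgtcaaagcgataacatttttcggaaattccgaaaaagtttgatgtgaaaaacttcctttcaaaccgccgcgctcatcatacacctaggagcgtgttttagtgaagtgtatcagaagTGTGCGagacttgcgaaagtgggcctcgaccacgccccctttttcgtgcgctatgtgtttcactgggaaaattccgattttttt
rps-12: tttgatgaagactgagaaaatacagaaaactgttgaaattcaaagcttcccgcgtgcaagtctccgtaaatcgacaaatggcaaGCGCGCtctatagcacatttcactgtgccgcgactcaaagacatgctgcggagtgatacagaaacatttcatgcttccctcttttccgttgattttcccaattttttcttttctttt
rpl-15: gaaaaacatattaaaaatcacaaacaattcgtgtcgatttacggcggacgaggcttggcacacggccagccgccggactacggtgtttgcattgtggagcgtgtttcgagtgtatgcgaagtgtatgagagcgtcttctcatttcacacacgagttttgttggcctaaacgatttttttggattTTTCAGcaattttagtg

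CGCACA was present in 3 of the 10 peak windows (30%), rps-24 and rpl-35 among them. Its share was 10% in 70 other windows of the family, 21.7% in 309 windows at reproducible peaks of other promoters and 6.14% in all candidates. GCGCGC, which is its own reverse complement, was also in 3 of the 10, at eif-3.E, eif-3.I and rps-12. It was in 2.86% of the other windows of the family, 18.4% of the other peak promoters and 3.29% of candidates. No window held both motifs. The intervals on 3 of 10 run from 6.67 to 65.2% and include the shares at other peak promoters. Both motifs had led the earlier analysis of these same data. Their shares at peaks against candidates are therefore only a description and no independent support. GAGAGA was in 1 of the 10, against 34.6% of other peak promoters and 15.5% of candidates. ACATTGT and GTTCGA were in 0 of 10, which allows a share of up to 30.8%, and ACATTGT was also in 0 of the 70 other windows, against 2.76% of candidates. TTTCAG was in 2 of the 10 (rpl-15 and eif-3.C), in 51.4% of the other windows of the family and in 32.5% of candidates. In the 300 bases at the RefSeq gene starts, from 250 before to 50 after, TTTCAG was in 70% of the 10 genes, 68.9% of all 103 and 52.2% of 19962 promoters. ACATTGT was in 2 of the 10 there (20%), in 4.85% of all 103 and in 5.66% of promoters, and GAGAGA in 3 of the 10 (30%), in 19.4% of all 103 and in 21.7% of promoters. GCGCGC was in 2 of the 10 (20%) and 3.52% of promoters, GTTCGA in 0 of the 10 and 9.93%, and CGCACA in 0 of the 10 and 7.13%. At other peak promoters the DM-domain core was in 2.91% of the windows, which lies within the interval on 0 of 10. The windows at summits and at starts differ in length, 201 and 300 bases, so their counts are not compared. Mean GC content around the summit was 43% at the 10 peaks, 39.8% at the other regions of the family and 45.7% at other peak promoters. The part of GC content in the motif shares was not tested.

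**Figure D1:**
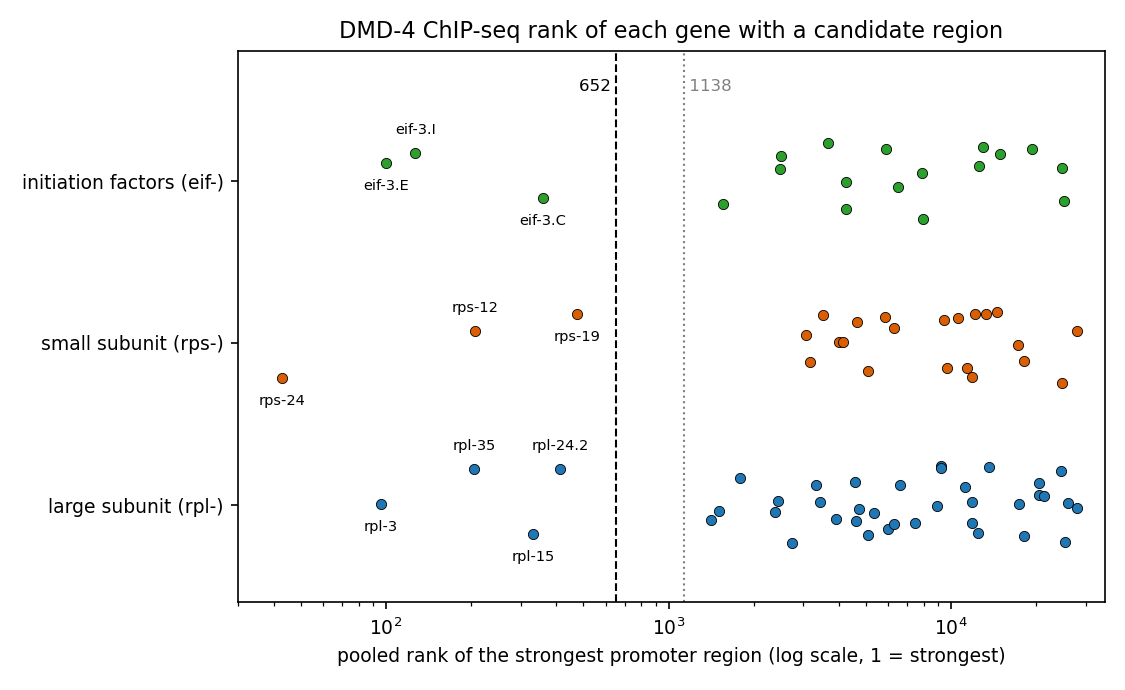
Pooled rank of the strongest promoter region (x axis, log scale, rank 1 strongest) of the 82 genes with a candidate, in rows for large subunit, small subunit and initiation factor genes; vertical position within a row is arbitrary. The dashed line is the end of the ce11 reproducible list at rank 652 and the dotted line the length of the ce10 list, 1138: the 10 labelled genes lie left of both, and the next gene is at rank 1410.

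Large subunit genes held 4 reproducible peaks among 47 genes (8.51%). At rpl-3, whose protein lies close to the catalytic centre of the ribosome, the region III:3867499-3867636 had a pooled signal of 227.6 and pooled rank 96. Its ranks were 104 in replicate 1, with a signal of 104.1, and 108 in replicate 2, with a signal of 118.2. The replicates thus placed it almost alike. The summit was 271 bp upstream of the start, between rpl-3 and its upstream neighbour acs-19. At rpl-35, a protein at the exit of the peptide tunnel, III:7854458-7854907 had a pooled signal of 167.1 and rank 205. It ranked 322 in replicate 1 (signal 64.54) and 173 in replicate 2 (signal 100.2). Its summit lay 451 bp upstream, in a gap of 11497 bp to the next gene on that side.

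At rpl-15, another protein of the large subunit, IV:654699-655148 had a pooled signal of 136.7 and rank 332, with rank 417 and signal 57.99 in replicate 1 and rank 287 and signal 81.58 in replicate 2. The summit was 348 bp upstream of rpl-15 and 466 bp upstream of K11H12.8, which is transcribed the other way, so the region lies in a promoter that both genes share. At rpl-24.2, a gene of the ribosomal protein L24 family, I:9669163-9669612 had a pooled signal of 125.6 and rank 413. Its ranks were 441 in replicate 1 (signal 56.9) and 478 in replicate 2 (signal 67.27). This was the summit nearest to a start among the 10, at 27 bp upstream, and it fell in an intron of C03D6.1.

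Small subunit genes held 3 reproducible peaks among 31 genes (9.68%). The region IV:385058-385507 at rps-24 ranked 47 in replicate 1 (signal 134.3) and 42 in replicate 2 (signal 162). Its summit was 604 bp upstream of the start, the farthest of the 10. A second reproducible region, IV:385475-385601, overlapped its end, with a signal of 265.5 and pooled rank 70. Both overlapped the same region in each replicate, so they are not separate observations there.

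At rps-12, III:5678901-5679350 had a pooled signal of 166.9 and rank 207. It ranked 455 in replicate 1 (signal 56.51) and 148 in replicate 2 (signal 106), the widest gap between replicates among the 10. The summit was 172 bp upstream of rps-12 but 121 bp from the start of ska-3 on the other strand. A snoRNA gene, F54E7.10, lay 252 bp from it, and rps-12 holds 2 snoRNA genes. At rps-19, I:9625874-9626323 had a pooled signal of 119.3 and rank 473, the lowest of the 10. It ranked 456 in replicate 1 (signal 56.49) and 562 in replicate 2 (signal 63.67). Its summit was 303 bp upstream of rps-19 and 142 bp from hsr-9, transcribed the other way. For rps-12 and rps-19 the nearest start was therefore that of the neighbour.

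Initiation factor genes held 3 reproducible peaks among 25 genes (12%), and all 3 were eIF3 subunit genes. They were 3 of 11 eIF3 genes (27.3%, interval 6.02 to 61%), against 0 of 14 genes of other initiation factors (up to 23.2%). The intervals overlap and the difference was not tested. At eif-3.E, I:10642270-10642719 had a pooled signal of 224.4 and rank 100, with rank 162 and signal 87.02 in replicate 1 and rank 88 and signal 128.1 in replicate 2. Its summit was 214 bp upstream of eif-3.E and 534 bp upstream of the divergent gene B0511.17.

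At eif-3.I, I:2487670-2488119 had a pooled signal of 203.7 and rank 127, with rank 123 and signal 98.06 in replicate 1 and rank 156 and signal 103.3 in replicate 2. This summit lay 509 bp upstream of an internal start of eif-3.I, in an intron of the longer transcript. It therefore counted for the gene only through its second start. At eif-3.C, I:9979683-9980132 had a pooled signal of 132.1 and rank 359, with rank 382 and signal 60.23 in replicate 1 and rank 403 and signal 71.63 in replicate 2. The summit was 246 bp upstream, in the gap of 400 bp to sys-1. Of the other 8 eIF3 genes, 7 had a weaker candidate and eif-3.L had none.

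The deposited -log10 q was 2.62 at the 6 strongest of the 10 and between 1.41 and 1.59 at rpl-15, eif-3.C, rpl-24.2 and rps-19, so all 10 had a q of at most 0.05. The 6 strongest, down to rps-12, also had at least the median signal of the reproducible list, 138.8. By chromosome, 5 of the 10 were on chromosome I, which holds 34 of the 103 genes, 3 on III and 2 on IV. None was on II, which holds 19 of the genes, nor on V with 10 or X with 2. These counts are small, shares by chromosome over all protein-coding genes are not given here, and no difference between chromosomes was tested.

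**Figure D2:**
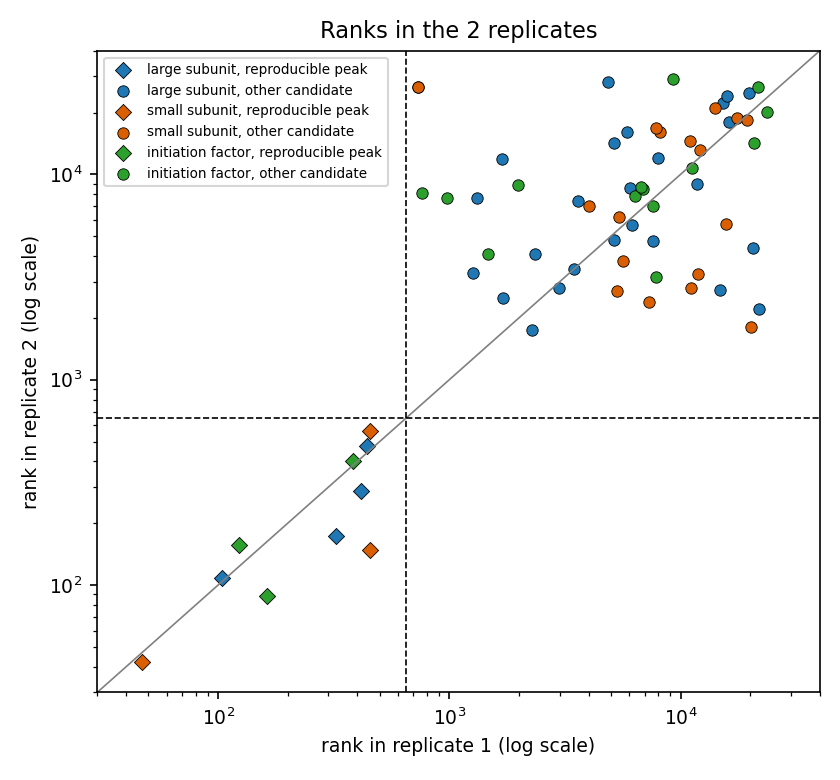
Rank of the replicate region in replicate 1 (x axis) against replicate 2 (y axis), both on log scales, for the 67 genes whose strongest pooled region overlapped a candidate of both replicates. Diamonds are reproducible peaks, circles other candidates, dashed lines mark rank 652 and the diagonal marks equal ranks: the 10 diamonds all lie in the lower left square, and no circle does.

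All 10 peak genes were within the top 652 regions of both replicates. Of the 404 other genes at a reproducible peak 270 were (66.8%). Both sets were selected on the replicates' ranks, so high shares follow in part from that selection. Over genes with a candidate, the share was 12.2% in the family (10 of 82) and 3.58% of all protein-coding genes (285 of 7970). The larger of the 2 replicate ranks was 1.04 to 3.07 times the smaller at the 10 genes, with a median of 1.25. It exceeded 2 at 1 of them, rps-12, against 136 of 401 other genes at reproducible peaks, whose median ratio was 1.58. In replicate 1, 5 of the 10 ranked higher, by 1.04 to 1.27 times (median 1.08). The other 5 ranked higher in replicate 2, by 1.12 to 3.07 times (median 1.84), so the larger differences were toward replicate 2. Taking the top 652 regions of replicate 1 alone or of replicate 2 alone gave the same 10 genes.

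The weaker candidates varied more between replicates, although the reproducible list was itself selected on the replicates' ranks, so this contrast is only a description. Of the 72 other genes with a candidate, 57 had an overlapping region in both replicates, 10 lacked one in replicate 1, 7 lacked one in replicate 2, and 2 of these, rpl-14 and rpl-23, had none in either. The rank ratio over the 57 had a median of 1.61, a highest value of 36.5 and exceeded 2 at 24 genes. None of the 72 was in the top 652 of either replicate. Best placed were rps-30 and rpl-39, a divergent pair of ribosomal protein genes that shares 1 region at rank 731 in replicate 1, but at rank 26685 in replicate 2. Next was eif-2A at rank 759 in replicate 1 and 8135 in replicate 2. These 3 genes and the pair without replicate regions were named after their values were seen.

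Most of the 103 genes had some candidate near a start. The count was 82 (79.6%, interval 70.5 to 86.9%), on 80 distinct regions, against 39.9% of all protein-coding genes, 7970 of 19985. Among genes with a candidate, 12.2% of the family (10 of 82, interval 6.01 to 21.3%) and 5.19% of all genes (414 of 7970) were at a reproducible peak. The median pooled rank of the 82 was 6294.5, against 10827.5 over all genes with a candidate. Candidates are mostly weak, and the median pooled signal of the 72 other genes was 51.38, against 167 at the 10 peak genes and 46.46 over all protein-coding genes with a candidate. By role, 39 of 47 large subunit genes had a candidate (83%), 24 of 31 small subunit genes (77.4%) and 19 of 25 initiation factor genes (76%). Their median ranks were 6293, 7856 and 5905, and differences between the roles were not tested.

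**Figure D3:**
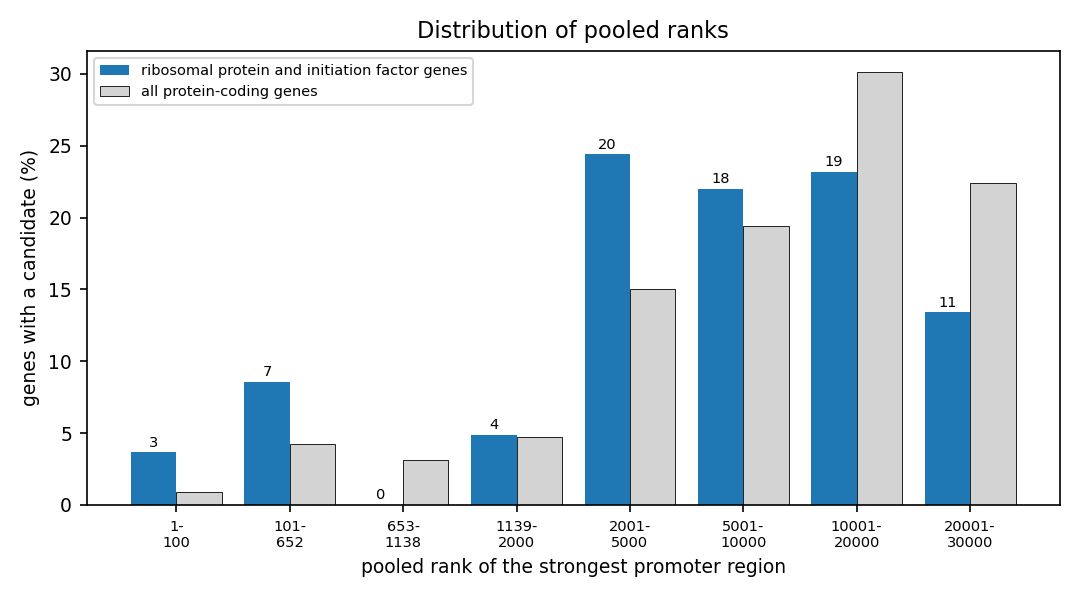
Share of genes with a candidate (y axis, %) in each interval of pooled rank (x axis), for the ribosomal protein and initiation factor genes (blue, with the number of genes above each bar) and all protein-coding genes (grey). The blue bars are higher in the intervals down to rank 652, absent from 653 to 1138, about equal from 1139 to 2000, higher from 2001 to 10000 and lower from 10001 on.

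The pooled ranks of the family left a gap between the peak genes and the rest. Its bounds were read from these values, and its width was not tested. The last inside the list was rps-19 at pooled rank 473 and the first outside was rpl-25.2 at 1410, and the strongest regions of 477 protein-coding genes lay between these ranks. None of the 82 genes lay between rank 653 and rank 1138, the length of the longer ce10 list. Of all genes with a candidate, only 3.14% did (250 genes). The top 100 regions held 3 of the 82 genes (3.66%), against 0.928% of all genes, and ranks 101 to 652 held 7 (8.54%), against 4.27%. Ranks 1139 to 2000 held 4 (4.88%), against 4.73%, which is near the background. At the far end, 11 of the 82 (13.4%) ranked below 20000, against 22.4% of all genes.

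Directly outside the list were 4 large subunit genes and 1 initiation factor gene. The region of rpl-25.2, I:8329433-8329882, had a pooled signal of 83.1 with the summit 11 bp upstream of the start. Replicate 1 placed it at rank 2287 and replicate 2 at 1756. The region of rpl-25.1, X:4715005-4715454, had a signal of 81.41 and pooled rank 1511, ranked 1270 and 3317, and had its summit 52 bp inside the gene. The region of eif-2Bgamma, a subunit of the exchange factor that recharges eIF2, was II:6968180-6968629, with a signal of 80.8 and pooled rank 1564. It ranked 977 in replicate 1 and 7688 in replicate 2, the widest spread of these 5, and its summit lay in an intron of C15F1.5. For rpl-24.1, I:4583904-4584353 had a signal of 77.92 and pooled rank 1787, with ranks of 1708 and 2487 in the replicates. Its summit was 986 bp upstream, in a coding exon of the divergent neighbour rps-10. The nearest start was that of another gene, tmem-39, at 319 bp. For rpl-11.2, X:2242424-2242873 had a signal of 72.15 and pooled rank 2382, with ranks of 2346 and 4088, and its summit was 31 bp upstream.

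The remaining 21 genes had no candidate in the window. They were rpl-7A, rpl-10, rpl-12, rpl-19, rpl-28, rpl-32, rpl-37 and rpl-42 of the large subunit, and rps-0, rps-4, rps-7, rps-9, rps-10, rps-13 and rps-15 of the small subunit. The initiation factor genes without one were eif-1, eif-1.A, eif-2beta, eif-2Bdelta, eif-2Bepsilon and eif-3.L. A missing candidate means only that no region there entered the pooled list of 30000, in which the weakest region counted for a gene of the family had a signal of 30.69.

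**Figure D4:**
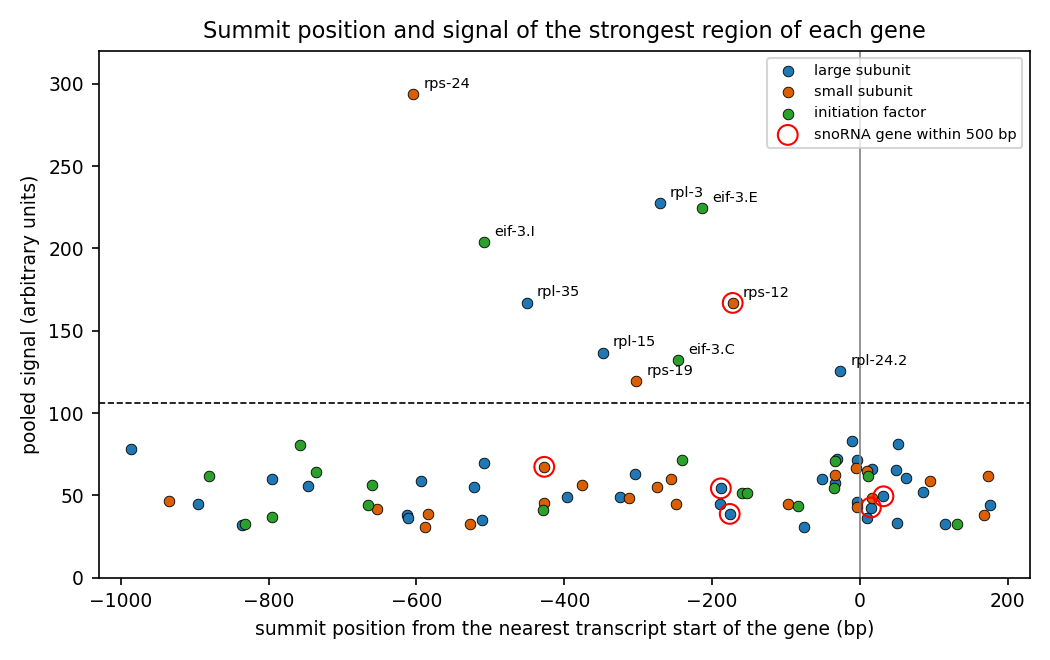
Position of the summit from the nearest transcript start of the gene (x axis, bp, negative upstream) and pooled signal (y axis, arbitrary units) of the 82 genes with a candidate, coloured by role, with a red ring where a snoRNA gene lay within 500 bp. The dashed line is the lowest signal of the reproducible list, 106.4: the 10 labelled points above it all lie upstream, from 604 to 27 bp before the start.

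The summits of the 10 peaks lay upstream of the starts and mostly at a distance from them. Their median position was 287 bp upstream, all 10 were upstream and 9 were at least 100 bp away. The 404 other genes at reproducible peaks were similar, with a median of 267.5 bp upstream and 82.4% at least 100 bp upstream. The 72 weaker regions of the family had a median of 188.5 bp upstream, and 27 of them (37.5%) had the summit within 100 bp of the start, against 1 of the 10. Weaker regions of other genes gave 31.9% within 100 bp. Of the 10 summits, 8 lay between genes and 2 in introns. Of the 72, 36 lay between genes, 21 in coding exons, 6 in untranslated parts of exons and 9 in introns.

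Several regions could not be assigned to 1 gene. Of the 10 peaks, 4 lay in the window of another gene as well: those of eif-3.E, rps-12, rpl-15 and rps-19. For 8 of the 10 genes their own start was the nearest to their summit, against 50 of the 72 others and 311 of 404 other genes at reproducible peaks. Binding near a start does not show which of the genes, if any, is regulated.

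A small part of these regions lay near structural RNA genes, but a larger share than over all protein-coding genes. A snoRNA gene lay within 500 bp of the summit at 6 of the 82 genes (7.32%) and a tRNA gene at 0, while a tRNA or snoRNA gene was that near at 2.08% of all protein-coding genes with a candidate. The 6 were rps-12 at 252 bp, rps-26 at 91 bp, rpl-6 at 151 bp, rpl-2 at 288 bp, rpl-4 at 360 bp and rpl-7 at 442 bp. Only rps-12 was at a reproducible peak, so 1 of the 10 peak genes was near a snoRNA gene, against 59 of 414 protein-coding genes at reproducible peaks (14.3%). The other 5 were named after their values were seen, and their pooled ranks ran from 3059 at rps-26 to 17342 at rpl-4. Of the 14 genes in the family with a snoRNA gene inside them, 11 had a candidate and 2 a reproducible peak, rps-12 and rpl-15. The shares were 79.6% and 9.71% in the whole family, and 39.9% and 2.07% over all protein-coding genes. No gene of the family had a tRNA gene inside. Without regions near tRNA or snoRNA genes, 9 of the 10 remained, all but rps-12.

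The peak at rps-24 stood apart in its sequence. Its window consists largely of a repeated unit, and the 8 bases GAAAAGGG, chosen after the window was read, occur 5 times in it. They were present in 42 of 652 reproducible peaks (6.44%) and in 436 of 30000 candidates (1.45%). An alignment of the window to the genome with blastn found 104 other loci of at least 50 bp, the longest 219 bp with 85.8% identity. Of these, 70 (67.3%) lay at candidates and 31 at reproducible peaks. Those peaks were 24 listed regions, but 12 of them formed 6 overlapping pairs, each pair with the same replicate ranks, so they stood at 18 separate places. The 652 reproducible peaks, joined likewise, gave 628 places, of which the 18 were 2.87%. The strongest pooled rank at each place ran from 2, at M01F1.9, to 542, with a median of 119, and 0 of the 24 regions were near a tRNA or snoRNA gene. The rps-24 region is thus 1 of a group of similar sequences that includes peaks stronger than it.

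At eif-3.I, 67 other loci of up to 116 bp (81% identity) were found, of which 19 (28.4%) lay at candidates and 0 at reproducible peaks. The other 8 peak windows had no other locus. Another locus was found for 7 of the 70 other windows of the family (10%) and for 88 of 309 other peak promoters (28.5%). Reads from such copies can be placed at more than 1 locus. How the authors placed them is not given in the sources used here, and its part in the signals at rps-24 and eif-3.I was not tested.

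Other genes of the translation machinery were counted in 6 lists. Of 6 ribosomal protein genes with other names, the acidic stalk proteins among them, 4 had a candidate and 0 a reproducible peak. Of 10 initiation factor genes with other names, 8 had a candidate and 1 a reproducible peak: iff-2, which encodes eIF5A, at II:8561245-8561694 with a signal of 107 and pooled rank 645. Its region, shared with F54C9.14, ranked 620 in replicate 1 and 875 in replicate 2. Elongation and termination genes gave 2 of 9 (22.2%, interval 2.81 to 60%). These were eef-1A.2, for an elongation factor that delivers tRNA, at X:7823092-7823541 (signal 142.7, ranks 378 and 268 in the replicates), and erfa-3, for a release factor, at V:11113140-11113589 (signal 122.3, ranks 256 and 1156).

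Aminoacyl-tRNA synthetase genes, whose enzymes load tRNAs, gave 1 of 32 (3.12%). It was ears-2, for a glutamyl-tRNA synthetase, at IV:390340-390634 with a signal of 529.3, pooled rank 10 and ranks 8 and 14 in the replicates, a stronger peak than any of the 10. Its region was shared with uncp-18. Genes of mitochondrial ribosomal proteins gave 2 of 70 (2.86%), near the 2.07% of all protein-coding genes. They were mrpl-23, at I:6212582-6213031 with a signal of 127.6 and a summit inside the snoRNA gene T08B2.13, and mrps-35, at V:18981046-18981495 with a signal of 112.2. Ribosome biogenesis genes gave 1 of 16 (6.25%), fib-1 for the snoRNA-bound methyltransferase fibrillarin, at V:15002169-15002618 with a signal of 114.8 in a promoter shared with mut-15. Median pooled ranks of genes with a candidate were 13841.5 for the synthetases and 14851 for the mitochondrial ribosomal proteins, against 6294.5 for the cytosolic ribosomal protein and initiation factor genes. The remaining lists, with 4 to 13 such genes each, lay nearer to the latter. Their medians were 5810 for other ribosomal proteins, 7194.5 for other initiation factors, 7126.5 for elongation and termination and 7527 for biogenesis. Candidate shares in the lists ran from 66.7 to 88.9%, against 79.6%. These traits were thus not particular to the 103 genes.

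**Figure D5:**
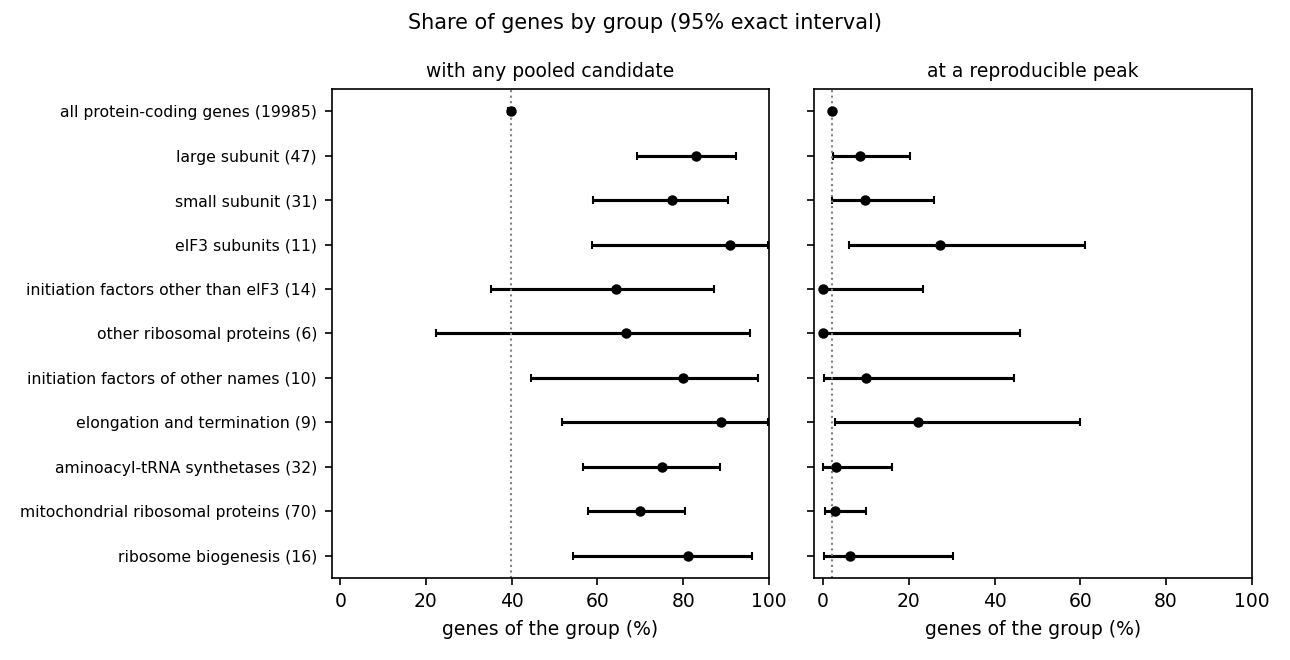
Share of genes (x axes, %) with any pooled candidate (left) and at a reproducible peak (right) for all protein-coding genes and 10 groups of translation genes, with the number of genes in brackets. Points are shares, bars 95% exact intervals and dotted lines the shares of all protein-coding genes, 39.9% and 2.07%; the large subunit lies at 8.51%, the small subunit at 9.68% and eIF3 at 27.3% on the right.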

How the data were processed

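ChIP-seq region lists of 2 biological replicates and their pool were analysed. The signal of each region and, in the pooled and reproducible lists, its -log10 q were used as the authors deposited them, in narrowPeak columns. The lists derive from aligned libraries and a control, per the file listing in the deposit, and the sources used here name no aligner, peak caller or reproducibility threshold. Depth is unknown, since no file gives read counts. Coordinates are ce11, the RefSeq assembly WBcel235; ce10 regions were used only for their number, 1138.

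Genes and starts came from Ensembl release 115. Regions were ranked by signal, and a replicate region was matched by an overlap of at least 1 bp with the pooled one. Motifs were counted on both strands in the 201 bases around summits. Sequence copies were searched with blastn 2.17.0 (e-value at most 1e-05, alignments of at least 50 bp, own locus within 2000 bp left out). Python 3.11.15, pandas 2.3.3, numpy 2.4.6, scipy 1.17.1 and matplotlib 3.10.9 were used. The assignment of regions to genes was tested on simulated data.

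The members, lists and motifs were chosen with earlier results of these data known. Genes were named if at a reproducible peak, if ranked between the lengths of the ce11 and ce10 lists, if among the next 5, or, by name only, if without a candidate. Of each list of other translation genes, up to 4 with a reproducible peak were named. In these lists, 1 of 11 named initiation factors, 1 of 4 named elongation and termination genes and 3 of 19 named biogenesis genes had no protein-coding gene of that symbol. The sequence of 1 window is not reported here. Alternatives varied the window, the starts, the gene assignment, the list, the replicate and the motif window. No tests were made.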

Additional observations from a re-analysis of the deposited data

How the results depend on the processing

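The count of 10 genes at a reproducible peak ranged from 8 to 12 under the alternatives tried. With a window of 500 bp upstream to 100 bp downstream, and with the most upstream start only, eif-3.I dropped out (9). With 2000 bp upstream to 500 bp downstream, rpl-11.1 and rps-16 entered (12). Assigning each region to its nearest start dropped rps-12 and rps-19 (8), and leaving out regions near RNA genes dropped rps-12 (9). A pooled q of at most 0.05, or the longer ce10 length, left 10. The count within the top of both replicates ranged from 8 to 11. Leaving out either replicate, with the top 652 regions of the other in place of the reproducible list, gave 10 and 10 genes. The reproducible list was selected on these same replicates, so this is no independent check. With either replicate left out, 80 and 83 genes had a candidate instead of 82. The median ranks were 6773 and 7688 instead of 6294. The narrow window left 61 genes with a candidate and the wide one 92. The number of genes near a tRNA or snoRNA gene moved from 6 to 2 within 250 bp and to 10 within 1000 bp, by the distance's own construction. Within 50 bp of the summit, GAGAGA and TTTCAG were in 0 of the 10 windows. No paired analysis was possible because there is 1 group and no result comes from a test. The limits are 2 replicates, unknown depth, ranks in place of levels, and few genes in each group.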

Other observations

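A further 4 reproducible peaks lay within 2000 bp of ribosomal protein genes but outside their start windows. The region I:1836706-1837155 lay 1493 bp past the downstream end of rpl-27, with a pooled signal of 171.6 and ranks 309 and 162 in the replicates. The region V:3587673-3588122 lay 1834 bp upstream of rpl-11.1, with a signal of 133.8, ranks 350 and 376, and a tRNA or snoRNA gene nearby. The others were the fib-1 peak and a region at rpl-9. The fib-1 peak, V:15002169-15002618, lay 1853 bp upstream of rps-16, with a signal of 114.8 and ranks 1259 and 355. The region III:7570300-7570749 lay 1580 bp past the downstream end of rpl-9, with a signal of 107.4 and ranks 2019 and 523. The replicates differed more in rank at the last pair than at any of the 10 promoter peaks. The upstream neighbour of rps-16 is fib-1, on the same strand with a gap of 109 bp, so the fib-1 peak lies upstream of both genes. Whether it bears on rps-16 was not tested.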
